A study of Homo sapiens with 16 samples.

Results

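The genes described are 40 chaperones, co-chaperones and heat shock transcription factors, out of 58676 genes counted in the RNA of A549 and SUM159 cells. They are a named list: HSP90 and its co-chaperones, HSP70 and its co-chaperones, HSP40 (J-domain) proteins, the chaperonin CCT, small heat shock proteins and HSF1 and HSF2. The list was chosen by the fall of HSPA8 and HSP90AA1 with palbociclib in SUM159, so every change in that comparison is given as a description, with no test, and supports nothing. All 40 genes were found in the count files and all 40 passed the filter on low counts in each of the 3 fits. Most are cytosolic proteins, but HSPA9, HSPD1 and HSPE1 work in mitochondria and HSF1 and HSF2 are transcription factors, so the list is wider than cytosolic chaperones.

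A549 is a lung cancer line and SUM159 a triple-negative breast cancer line, each a single line carried in culture. Each was left untreated (UT), or was exposed to 2 µM palbociclib (PD), to 3 µM indisulam (IN), or to both drugs at these doses (P+I), and RNA was taken after 16 h. Palbociclib inhibits CDK4 and CDK6 and stops the cell cycle in G1. Indisulam directs the splicing factor RBM39 to the DCAF15 ubiquitin ligase for degradation. Within a line the groups do not differ by genotype, whereas groups of A549 and SUM159 come from different lines. The media of the lines are also not the same, since that of SUM159 contained hydrocortisone and insulin. Each of the 8 groups has 2 libraries, which the submitters call technical duplicates, so that every p-value measures only the spread between such duplicates and not between independent cultures.

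Chaperones bind unfolded protein and keep it from aggregating. HSP70 takes up short hydrophobic stretches with the help of HSP40 proteins, which drive its ATPase, and passes many clients through STIP1 to HSP90, which finishes the folding of kinases and steroid receptors. CCT is a ring of 8 subunits that folds actin and tubulin. HSF1 drives many of these genes after heat or proteotoxic stress by binding heat shock elements, which are inverted repeats of the letters GAA. Growing cells express the constitutive members at high levels to serve newly made protein.

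Total gene counts per library ran from 18306636 to 34075588, so that 3 counts, taken as the floor, correspond to 0.088 to 0.164 CPM (read counts scaled to a common library total). Such floors cover counting error only. Levels below are CPM on TMM-adjusted library sizes, set within each line. RBM39 mRNA was raised by indisulam, with a log2 change of 1.06 in A549 and 1.09 in SUM159. Genes of S-phase entry and DNA replication (E2F1, MCM2, MCM5 and RRM2) fell in both lines after palbociclib, with log2 changes between -2.40 and -1.19. The lines carried their own markers: KRT8, KRT18, ALDH1A1 and AKR1B10 lay at 3503 CPM or above in every A549 library, and VIM, AXL and CAV1 were each higher in untreated SUM159 than in untreated A549 cells. CDKN2A, which is deleted in A549, did not separate the lines in that direction, since it stood at 1.35 to 2.48 CPM in A549 and at 0 to 0.0482 CPM in SUM159. EPCAM, the weakest of the A549 markers, stood between 20.3 and 26.1 CPM, and ESR1 and PGR were at 0.796 CPM or below in all 16 libraries. Of the leukocyte, endothelial and fibroblast markers, A549 held 4.73 CPM at most in any sum of 3, whereas SUM159 held COL1A1 at 627 to 810 CPM, DCN at 47.4 to 113 CPM and PECAM1 at 17.4 to 38.9 CPM. The summed endothelial markers lay at 17.6 to 19.7 CPM in untreated SUM159 libraries and 37.2 to 39.2 CPM with both drugs, nearly all of it PECAM1, and their part in the chaperone changes was not tested. The other 6 of the 9 markers were at 4.54 CPM or below in SUM159, where CDH5 and CD3E lay at or near 0.

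Heat shock elements were looked for in the RefSeq promoter windows (GRCh38.p14) of the members, as a description. Windows were given for 34 of the 40 genes and were not given for CCT6A, FKBP4, HSF1, HSPA14, ST13 and STUB1. The element searched, on both strands, was GAANNTTCNNGAA or its reverse complement TTCNNGAANNTTC, and overlapping matches were merged. At least 1 match was held by 7 of the 34 members (20.6%) and by 166 of the 27305 genes with a window (0.608%). The list names heat shock genes, many driven by HSF1 through this element, so the higher share could be foreseen. It supports nothing about the changes below. A match is a run of letters and not a measured binding site. The 7 genes were CHORDC1, DNAJA1, DNAJB6, HSP90AA1, HSP90AB1, HSPA8 and HSPD1, and the match in DNAJA1 lies after its start and is not printed. The stretches are shown because they are the matches that lie before the start, among them those of the 2 genes that chose the list. Capitals mark the matched letters.
HSPA8, chr11:123062171-123062199, minus strand: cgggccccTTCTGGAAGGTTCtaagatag
HSPA8, chr11:123062346-123062374, minus strand: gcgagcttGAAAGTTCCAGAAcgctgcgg
HSP90AA1, chr14:102087112-102087140, minus strand: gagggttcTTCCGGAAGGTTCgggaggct
HSP90AB1, chr6:44247823-44247851, plus strand: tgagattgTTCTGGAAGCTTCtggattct
HSP90AB1, chr6:44247770-44247798, plus strand: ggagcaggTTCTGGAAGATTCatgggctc
HSPD1, chr2:197500062-197500090, minus strand: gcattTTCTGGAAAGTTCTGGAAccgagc
CHORDC1, chr11:90223084-90223112, minus strand: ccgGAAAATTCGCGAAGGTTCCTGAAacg
DNAJB6, chr7:157336865-157336893, plus strand: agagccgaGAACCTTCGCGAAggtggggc
The nearer element of HSPA8 lies at positions -55 to -43 from the annotated start and the farther one at -230 to -218. That of HSP90AA1 lies at -88 to -76. In HSPD1 and CHORDC1 the matches run into each other, from -245 to -228 and from -60 to -38. All 8 stretches lie before the RefSeq start of their window, and all but that of CHORDC1 fall within the bounds of the gene in GENCODE release 44, where longer transcripts start farther away.

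Per kilobase of exon, the untreated levels ranged widely. HSP90AB1, HSP90AA1 and HSPA8 were the highest 3 in both lines, at 830.1, 771 and 590.0 CPM per kilobase in A549 and at 1318, 831 and 911 in SUM159. HSPA4L, HSF2 and DNAJB6 were the lowest in A549, at 5.01, 5.80 and 6.26, and in SUM159 they lay at 7.58, 8.48 and 6.34. The stress-inducible HSPA1A and HSPA1B reached only 36.7 and 26.2 CPM per kilobase in untreated A549 cells, so that the constitutive HSPA8 was far above them. These values divide by the exon length of GENCODE release 44 and are levels, with no test.

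Several members could not be counted cleanly. HSPA1A and HSPA1B are near-identical copies, whose reads may be split between them or dropped. The exons of 20 of the 40 genes overlap another gene, 8 on the same strand and 15 on the other, and the strand setting of the counting is not given in the sources used here. HSPE1 shares exons with the read-through gene HSPE1-MOB4 and overlaps HSPD1, and was listed at 21.4 and 23.1 CPM in untreated A549 cells against 1348 and 1353 for its partner HSPD1. HSPA14 likewise shares exons with MSANTD7 and CDNF, and STUB1 with JMJD8 on the other strand. Values of these genes are uncertain to that extent.

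The first question was what palbociclib does to these genes. In A549, 31 of the 40 were lower and 2 higher with palbociclib than without (edgeR adjusted p under 0.05), while 21.1% of all 15744 genes tested were lower and 22% higher. The median log2 change was -0.24 over the members and 0.03 over all genes. HSP90AA1 fell most, by 41.6%, and the small heat shock gene HSPB8 rose most. Because abundant genes were lower more often, members were also set beside genes averaging 100 CPM or more, a choice made after the values were seen: 26 of the 29 members at that level were lower, against 41.4% of such genes. The summed level of the 40 genes was 21401 and 20982 CPM in the untreated libraries and 16509 and 16574 CPM with palbociclib, which is 78.1% of the untreated mean. In bulk RNA, a smaller part of the reads and less of an mRNA per cell cannot be told apart. Without A549 UT replicate 1 or without A549 PD replicate 1 a single member stayed higher.

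**Figure D1:**
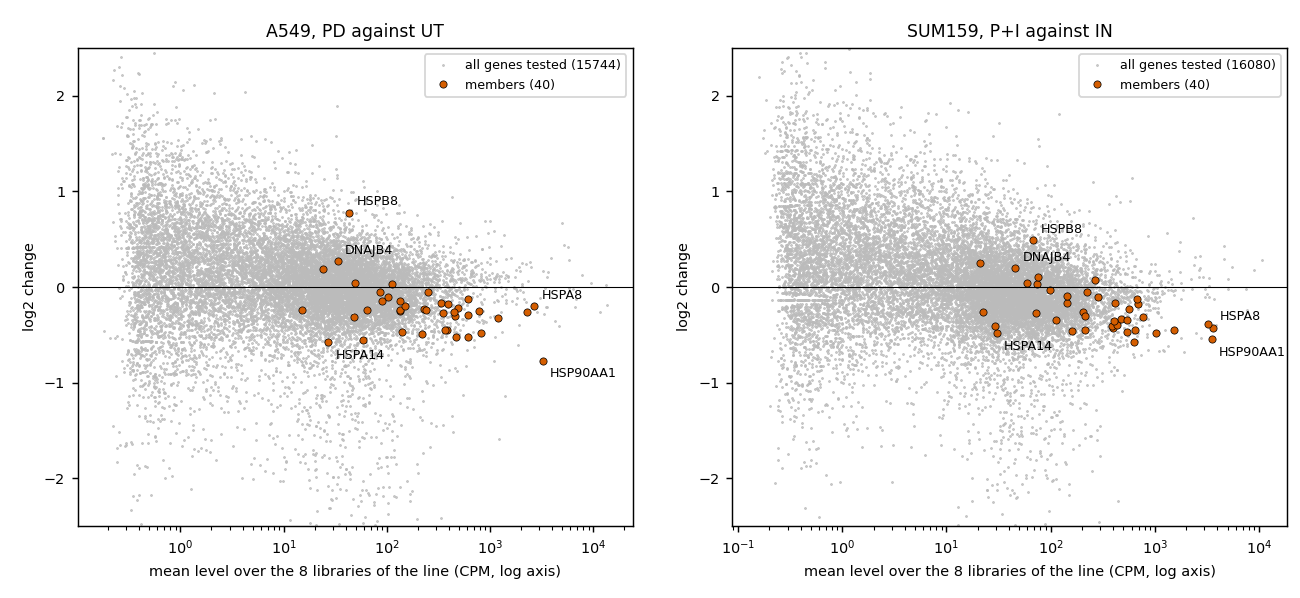
Log2 change (vertical axis) against the mean level over the 8 libraries of the line (horizontal axis, CPM, log scale) for A549 with palbociclib against untreated (left) and SUM159 with both drugs against indisulam alone (right). Grey points are all genes tested, some of which lie beyond the vertical axis, and orange points are the 40 members, most of which lie below 0 at levels above 100 CPM, while HSPB8 lies above 0 in both panels.

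The same drug was also added on top of indisulam. In A549, 25 of the 40 genes were lower and 2 higher in P+I than in IN libraries, beside 20.1% and 18.6% of all genes, with a median log2 change of -0.20. Of the 29 members averaging 100 CPM or more, 21 were lower, against 33.9% of genes at that level. Without A549 IN replicate 1 only 1 gene, HSPB8, was still higher, since STUB1 lost its call. In SUM159 this comparison uses none of the libraries that chose the list. There 30 of the 40 genes were lower and 3 higher, beside 28% and 24.9% of all 16080 genes, and the median log2 change was -0.31. At 100 CPM or more 26 of 29 members were lower, against 53.4% of genes at that level, so that in SUM159 more of the abundant genes fell in general. Without SUM159 IN replicate 1 a single gene was higher, HSPB8, and scaling by total counts gave 24 lower and 7 higher.

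For the comparison that chose the list, SUM159 with palbociclib against untreated, the values are a description. Of the 40 genes 35 had a log2 change below 0. The median was -0.32 over the members and 0.02 over all genes, and nothing is read from these values. HSPA8 was at 4455 and 4382 CPM in untreated and 3228 and 3054 CPM in PD libraries, and HSP90AA1 at 4220.2 and 4255 and at 2817 and 2643 CPM. The largest rises were those of HSPB8, at a log2 change of 0.53, and DNAJB4, at 0.41. The rule had no numerical threshold, so no members lie just inside or outside one.

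**Figure D2:**
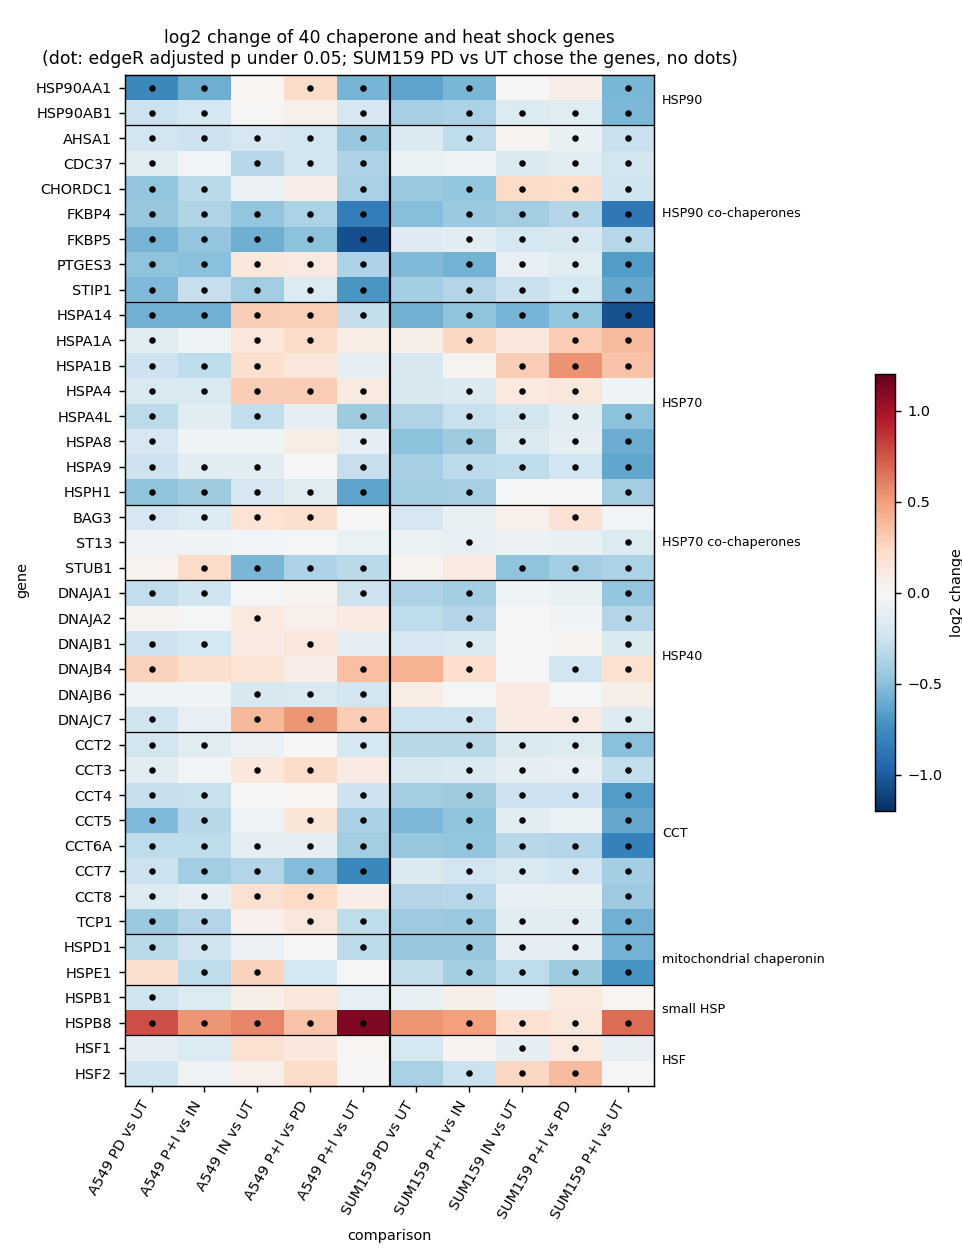
Log2 change of each of the 40 genes (rows, grouped by role) in 5 comparisons in A549 and 5 in SUM159 (columns), on a colour scale from blue for lower to red for higher. Dots mark genes with an edgeR adjusted p under 0.05. They are not drawn for SUM159 PD vs UT because that comparison chose the list, and its column supports nothing. The columns A549 PD vs UT, A549 P+I vs IN and SUM159 P+I vs IN are mostly blue. In these 2, 2 and 3 genes were called higher, HSPB8 in each.

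Among the 2 HSP90 genes, HSP90AA1, the stress-inducible form (chr14:102080742-102139699, minus strand, GRCh38), gave the largest fall of the list with palbociclib in A549. It stood at 3994 and 3868 CPM in untreated and 2284 and 2312 CPM in PD libraries (log2 change -0.77, SE 0.038, adjusted p = 5.22e-10). With indisulam it was at 4038 and 3958 CPM, and with both drugs at 2641 and 2695 CPM. All 4 libraries with palbociclib were thus below all 4 without it, and indisulam alone left the level within the range of the untreated duplicates or just above it. In SUM159 the IN libraries held 4297 and 4151 CPM and the P+I libraries 2799.8 and 2985 CPM (log2 change -0.55, SE 0.040, adjusted p = 5.46e-09).

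HSP90AB1, the constitutive form (chr6:44246166-44253888, plus strand), changed less in A549, from 2476 and 2472 to 2045 and 2082 CPM with palbociclib (log2 change -0.26, SE 0.038, adjusted p = 6.03e-05). In SUM159 it was at 3487 and 3539 CPM with indisulam and 2663 and 2729.6 CPM with both drugs (log2 change -0.38, SE 0.034, adjusted p = 6.78e-08). Both HSP90 genes together made up 68.1% of their untreated summed level in A549 PD libraries.

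All 7 HSP90 co-chaperones were lower with palbociclib in A549, beside 21.1% of all genes and 41.4% of genes averaging 100 CPM or more. FKBP5, a prolyl isomerase that holds steroid receptors in a low-affinity state (chr6:35573585-35728583, minus strand), went from 84.7 and 83.0 to 58.0 and 56.1 CPM (log2 change -0.56, SE 0.051, adjusted p = 6.19e-07). STIP1, the adaptor that joins HSP70 to HSP90, went from 615 and 612 to 431 and 420.2 CPM (log2 change -0.53, SE 0.040, adjusted p = 7.15e-08). The duplicates lay close together in both genes and the groups did not overlap. PTGES3 (p23), which stabilises the closed form of HSP90, CHORDC1, an HSP90-binding protein, and FKBP4, the isomerase that promotes receptor transport, had log2 changes of -0.48, -0.47 and -0.45. AHSA1, which speeds up the ATPase of HSP90, and CDC37, which loads kinases, fell less, by 14.6% and 9.44%.

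On top of indisulam in SUM159, 6 of the 7 co-chaperones were lower and CDC37 did not pass the test (log2 change -0.05, adjusted p = 0.283). In that comparison 28% of all genes and 53.4% of genes averaging 100 CPM or more were lower. PTGES3 gave the largest fall of the list there, from 736 and 731 to 480.3 and 507 CPM (log2 change -0.57, SE 0.041, adjusted p = 3.35e-09). FKBP4, CHORDC1 and STIP1 had log2 changes of -0.45, -0.46 and -0.35. FKBP5 changed by only -0.13, against -0.47 in A549, and this difference between the lines was itself called (difference 0.41, adjusted p = 6.69e-05).

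**Figure D3:**
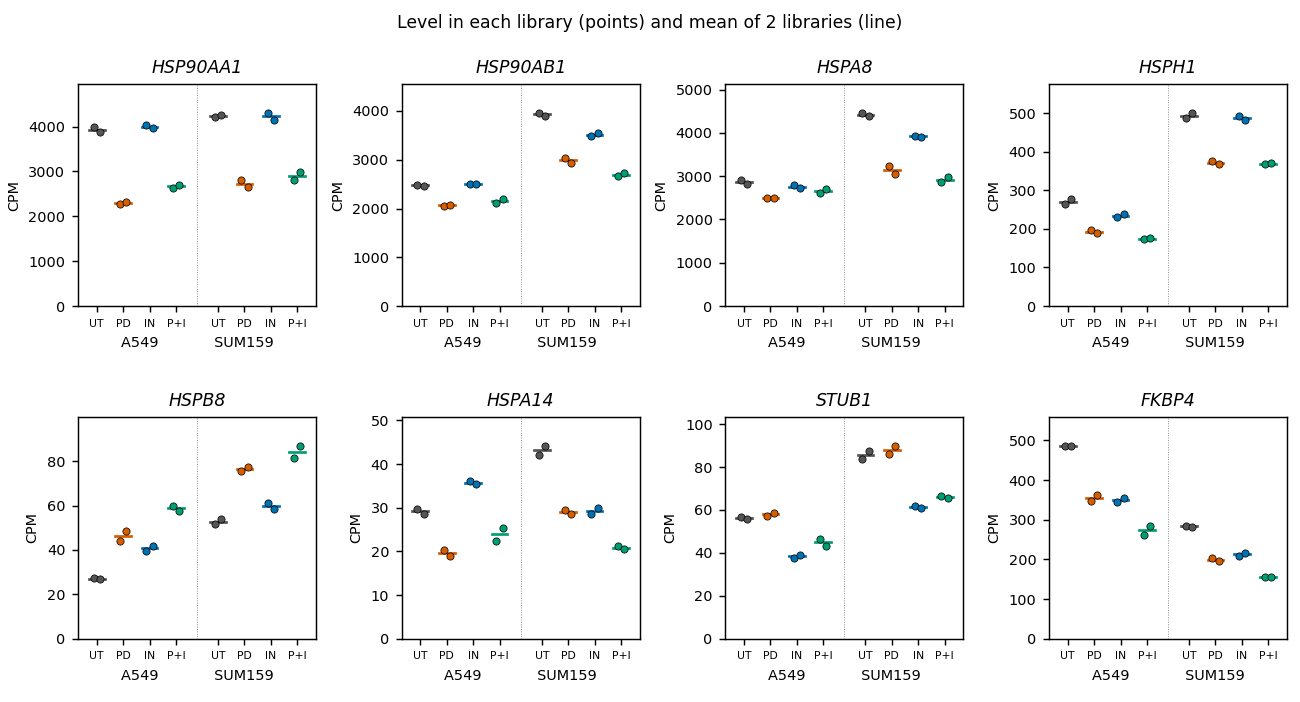
CPM in each library (points) and the mean of 2 libraries (lines) for 8 members in untreated (UT), palbociclib (PD), indisulam (IN) and combination (P+I) groups of A549 (left of the dotted line) and SUM159 (right), with axes from 0 and the lines scaled separately. The PD points of SUM159 belong to the comparison that chose the list, and support nothing. In the other groups HSP90AA1 and HSPH1 are low wherever palbociclib was given, and HSPB8 is high there. STUB1 is low wherever indisulam was given, and HSPA14 is high with indisulam alone in A549 but low with it in SUM159.

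In the HSP70 family, all 8 genes were lower with palbociclib in A549, beside 21.1% of all genes and 41.4% of genes averaging 100 CPM or more. HSPA8, the constitutive HSP70 and a gene that chose the list (chr11:123057489-123063230, minus strand), stood at 2902 and 2820.4 CPM in untreated and 2491 and 2493 CPM in PD libraries (log2 change -0.20, SE 0.039, adjusted p = 0.000777). On top of indisulam it went from 2792 and 2728 to 2606 and 2709 CPM in A549, which did not pass the test (log2 change -0.05, SE 0.039, adjusted p = 0.29). In SUM159 the same comparison gave 3935 and 3898 and 2873 and 2970.1 CPM (log2 change -0.42, SE 0.036, adjusted p = 3.82e-08). The fall of HSPA8 on top of indisulam was larger in SUM159 than in A549 (difference of log2 changes -0.30, SE 0.0553, adjusted p = 0.000508).

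HSPA14, a ribosome-associated HSP70 (chr10:14838306-14871741, plus strand), went from 29.7 and 28.7 to 20.4 and 18.9 CPM with palbociclib in A549 (log2 change -0.58, SE 0.076, adjusted p = 2.74e-05). HSPH1, an HSP110 protein that exchanges the nucleotide of HSP70, went from 264 and 277 to 198 and 188 CPM (log2 change -0.49, SE 0.043, adjusted p = 4.38e-07). Both were low again in P+I libraries of A549, at 22.4 and 25.4 and at 173 and 177 CPM. The remaining exchange factors HSPA4L and HSPA4 and the mitochondrial HSPA9 had log2 changes of -0.32, -0.18 and -0.25.

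The stress-inducible HSPA1A and HSPA1B moved little. With palbociclib in A549 they had log2 changes of -0.15 and -0.24, and the reads of both copies summed gave -0.19, still lower. The call for HSPA1A alone was lost without any 1 of the 4 libraries compared and that for HSPA1B without A549 UT replicate 1 or A549 PD replicate 1, at -0.15 and -0.23. Scaling by total counts also ended both calls, at -0.09 and -0.18, and DESeq2's Wald test that of HSPA1A (-0.16). In SUM159, HSPA1A went from 20.0 and 21.1 CPM with indisulam to 24.1 and 25.0 CPM with both drugs (log2 change 0.25, SE 0.065, adjusted p = 0.00379). This rise was not called without SUM159 IN replicate 1 (0.21) or when the copies were summed (0.10).

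The 8 CCT subunits were all lower with palbociclib in A549, from -0.53 for CCT5 and -0.44 for TCP1 to -0.12 for CCT3 on the log2 scale. CCT6A, CCT4, CCT7, CCT2 and CCT8 lay between them, at -0.30, -0.27, -0.26, -0.22 and -0.16. Of all genes 21.1% were lower in that comparison, and of genes averaging 100 CPM or more 41.4%. CCT5 was at 719 and 715 CPM in untreated and 495 and 501 CPM in PD libraries. On top of indisulam in SUM159 all 8 were again lower, beside 28% of all genes and 53.4% of genes averaging 100 CPM or more. Their log2 changes lay between -0.48 for CCT5 and -0.18 for CCT3, and CCT5 went from 1167 and 1143 to 811 and 844 CPM. In A549 on top of indisulam 7 were lower and CCT3 was not called (log2 change -0.03, adjusted p = 0.564). The shares of lower genes there were 20.1% of all genes and 33.9% of genes averaging 100 CPM or more. The subunits enter the ring in equal number, but their mRNA changes were not of equal size. Summed over the 8 subunits, the level with palbociclib was 81.6% of untreated in A549.

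Of the mitochondrial chaperonin pair, HSPD1 fell with palbociclib in A549, from 1348 and 1353 to 1087 and 1078 CPM (log2 change -0.32, SE 0.037, adjusted p = 8.44e-06), while HSPE1 did not pass the test (0.19, adjusted p = 0.111). In SUM159 on top of indisulam both were lower, with log2 changes of -0.45 and -0.41.

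The 6 HSP40 genes did not move as one. With palbociclib in A549, DNAJA1, DNAJB1 and DNAJC7 were lower (log2 changes -0.29, -0.25 and -0.24), whereas DNAJA2 and DNAJB6 were not called (0.03 and -0.05). DNAJB4 was higher, at 27.5 and 30.3 CPM in untreated and 36.5 and 33.6 CPM in PD libraries (log2 change 0.27, SE 0.077, adjusted p = 0.0102), a call that was lost without A549 UT replicate 1 (0.20) or A549 PD replicate 1 (0.22). In SUM159 on top of indisulam 4 were lower, beside 28% of all genes, and DNAJB4 was higher (log2 change 0.20, SE 0.061, adjusted p = 0.0115). That rise rested on single libraries, with 0.19 without SUM159 IN replicate 1, 0.20 without SUM159 IN replicate 2 and 0.09 without SUM159 PI replicate 2, none of them called. DNAJB6 was again not called (-0.03).

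HSPB8, a small heat shock protein that works with BAG3 in the disposal of misfolded protein (chr12:119171555-119224855, plus strand), was higher with palbociclib in A549, with and without indisulam, and on top of indisulam in SUM159. In A549 its level was 27.4 and 26.8 CPM untreated, 44.0 and 48.5 CPM with palbociclib, 39.8 and 41.6 CPM with indisulam and 59.7 and 57.7 CPM with both. None of these groups overlapped. The change with palbociclib was called (log2 change 0.78, SE 0.066, adjusted p = 2.66e-07), as was the change on top of indisulam (log2 change 0.53, SE 0.060, adjusted p = 7.95e-06). In SUM159 it was at 61.2 and 58.6 CPM with indisulam and 81.4 and 86.8 CPM with both drugs (log2 change 0.49, SE 0.047, adjusted p = 1.72e-07). The other small member, HSPB1, was lower with palbociclib in A549 (-0.24, adjusted p = 0.0137) and was not called on top of indisulam in either line.

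The co-chaperones of HSP70 and the 2 heat shock factors changed little with palbociclib. BAG3, a nucleotide exchange factor, was lower in A549 (-0.20, adjusted p = 0.00215), while ST13 (HIP) and STUB1, the ubiquitin ligase CHIP, were not called (-0.06 and 0.04). HSF1 was at 104 and 95.7 CPM untreated and 91.2 and 94.1 CPM with palbociclib, which did not pass the test (-0.11, adjusted p = 0.298), nor did HSF2 (-0.24, adjusted p = 0.0647). On top of indisulam in SUM159, HSF1 was not called (0.03) and HSF2 was lower (-0.26, adjusted p = 0.00438). There ST13 was lower (-0.10, adjusted p = 0.0332), and BAG3 and STUB1 were not called (-0.09 and 0.11).

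Of 19 members that general knowledge lists as inducible through HSF1, 16 were lower and 2 higher with palbociclib in A549, with a median log2 change of -0.25. All genes tested were lower in 21.1% and higher in 22%, and of all 40 members 31 were lower and 2 higher. On top of indisulam in SUM159, 13 of the 19 were lower and 3 higher, beside 28% and 24.9% of all genes, with a median of -0.35. Of all 40 members 30 were lower and 3 higher there. Whether the 19 differ from the other members was not tested. The log2 changes with palbociclib against untreated in A549 are listed for the 7 genes with a heat shock element in their window. They were -0.77 for HSP90AA1, -0.47 for CHORDC1, -0.32 for HSPD1, -0.29 for DNAJA1, -0.26 for HSP90AB1, -0.20 for HSPA8 and -0.05 (not called) for DNAJB6.

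**Figure D4:**
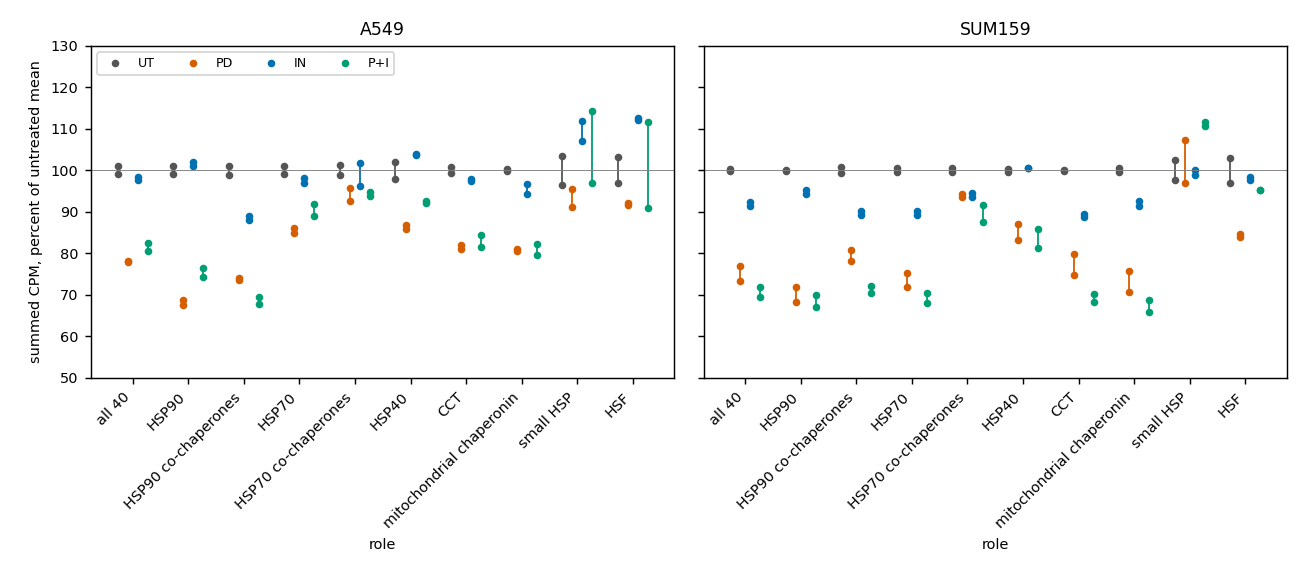
Summed CPM of each role as a percent of the mean of the 2 untreated libraries of the line (vertical axis, starting at 50), with 1 point per library and the duplicates joined, for A549 (left) and SUM159 (right). With palbociclib (orange) in A549 the HSP90 sums average 68.1% and those of CCT 81.6%, whereas the small heat shock sums average 93.3%. The orange points of SUM159 (70.0%, 77.2% and 102%) belong to the comparison that chose the list by the fall of HSPA8 and HSP90AA1, and support nothing.

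Indisulam alone moved these genes less uniformly. In A549, 12 of the 40 were higher and 12 lower, beside 23.3% and 25.9% of all genes, and the median was 0.02. Only 6 were higher without A549 UT replicate 2 or without A549 IN replicate 2. The summed level was 98.0% of the untreated mean. In SUM159, where the untreated libraries are those that chose the list, 5 were higher and 21 lower, beside 21.9% and 24.9% of all genes, with a median of -0.11 and a summed level of 91.9%. The number higher was 3 without SUM159 UT replicate 1 or without SUM159 IN replicate 1, and 10 with scaling by total counts.

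With indisulam FKBP5 fell most in A549, by a log2 change of -0.58, before the co-chaperones STUB1 and FKBP4, whereas in SUM159 HSPA14 fell most (-0.56), before STUB1 and FKBP4. STUB1 (chr16:680224-682870, plus strand) was at 56.6 and 56.0 CPM in untreated and 37.7 and 39.1 CPM in IN libraries of A549 (log2 change -0.55, SE 0.056, adjusted p = 1.93e-06). In SUM159 it was at 83.8 and 87.4 and 61.7 and 61.0 CPM (log2 change -0.48, SE 0.045, adjusted p = 2.37e-07). The ligase was thus lower in every library with indisulam than in every library without it, in each line. FKBP4 fell from 486 and 486 to 345 and 355 CPM in A549 (log2 change -0.47, SE 0.043, adjusted p = 5.94e-07) and from 285 and 282 to 209.8 and 216 CPM in SUM159 (log2 change -0.41, SE 0.036, adjusted p = 9.00e-08). STIP1 had log2 changes of -0.42 and -0.26, CDC37 of -0.34 and -0.17 and CCT7 of -0.36 and -0.18 in A549 and SUM159, all called.

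Among the genes that rose with indisulam in A549 were HSPB8 (log2 change 0.59, SE 0.067, adjusted p = 6.02e-06), DNAJC7, a J-domain protein that binds both HSP70 and HSP90 (log2 change 0.39, SE 0.042, adjusted p = 3.25e-06), and HSPA4 (log2 change 0.29, SE 0.038, adjusted p = 2.16e-05). DNAJC7 went from 120.4 and 122 to 157 and 161 CPM. In SUM159 the largest rise was that of HSPA1B, from 55.8 and 53.8 to 65.6 and 69.1 CPM (log2 change 0.30, SE 0.054, adjusted p = 0.000248), and the reads of HSPA1A and HSPA1B together rose by 0.26. HSF2 and CHORDC1 rose there too (0.25 and 0.23). HSF2 was not called without SUM159 UT replicate 2 (0.18) or SUM159 IN replicate 2 (0.23), and HSPB8 in SUM159 (0.18) was not called without SUM159 UT replicate 1 (0.16) or SUM159 IN replicate 1 (0.15).

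**Figure D5:**
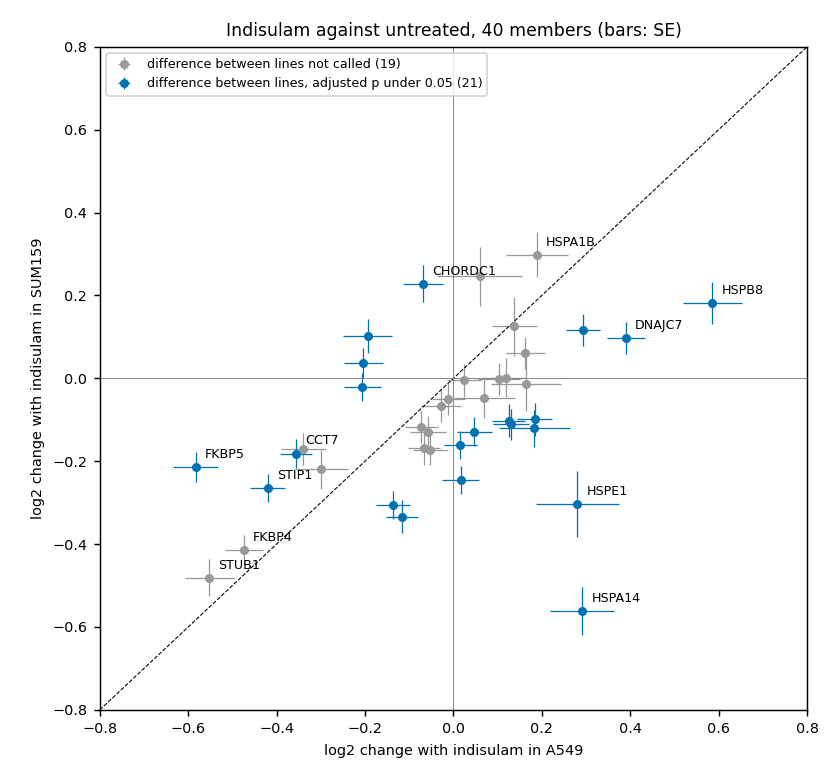
Log2 change with indisulam against untreated in A549 (horizontal axis) and in SUM159 (vertical axis) for the 40 members, with bars of 1 SE and the dashed line of equal change. Blue points are the 21 genes whose difference between the lines had an adjusted p under 0.05 in a fit of all 16 libraries, of which HSPA14 lies farthest from the dashed line, and STUB1 and FKBP4 lie close to it.

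The response to indisulam differed between the lines for 21 members, 7 with a higher and 14 with a lower log2 change in SUM159, beside 8.04% and 6.97% of the 17764 genes of the joint fit. The untreated SUM159 libraries in this difference are among those that chose the list. These counts were 2 to 7 and 8 to 14 when 1 library was left out, and 8 and 9 with scaling by total counts. The share among genes of like abundance was not taken for this difference. HSPA14 differed most. It rose in A549, from 29.7 and 28.7 to 36.1 and 35.4 CPM (log2 change 0.29, SE 0.072, adjusted p = 0.00397), and fell in SUM159, from 42.2 and 44.2 to 28.6 and 29.9 CPM (log2 change -0.56, SE 0.058, adjusted p = 6.17e-07). The difference was -0.85, adjusted p = 1.04e-06. HSPE1 also rose in A549 and fell in SUM159, with log2 changes of 0.28 and -0.30 (difference -0.58, adjusted p = 0.00313), and both genes overlap others as given above. HSPB8 rose more in A549 (difference -0.40, adjusted p = 0.00242) and FKBP5 fell more there (difference 0.37, adjusted p = 0.000153).

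The response to palbociclib on top of indisulam differed for fewer members: 5 were higher and 2 lower in SUM159 than in A549, beside 10.1% and 4.61% of all genes. The 2 lower ones were HSPA8, as above, and DNAJA2 (difference -0.26, adjusted p = 0.00988). Among the 5 higher were HSPA1B, HSPA1A and HSPB1, with differences of 0.41, 0.37 and 0.31. That of HSPB1 was not called with DESeq2 size factors (0.23), total counts (0.27) or DESeq2's Wald test, nor without any of 10 single libraries, down to 0.0381 without A549 PI replicate 2. HSPA1A and HSPA1B lost their calls without A549 PI replicate 2 (0.18 and 0.19) or A549 IN replicate 2 (0.23 and 0.24), and HSPA1A also without A549 IN replicate 1 (0.25). DNAJA2 lost its call without SUM159 PI replicate 1 (-0.22). The count of 2 was 11 with DESeq2 size factors, which moved the median difference of all genes from 0.06 to -0.01, and it ran from 1 to 17 when 1 library was left out: 17 without A549 PI replicate 1, 16 without A549 PD replicate 1, 15 without A549 UT replicate 1 or 2 or A549 PD replicate 2, 12 without A549 IN replicate 1 or 2 or A549 PI replicate 2, 4 without SUM159 PD replicate 1 or 2 and 1 without SUM159 PI replicate 1. How many members fell more in SUM159 is therefore not settled by these libraries.

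With both drugs the levels were compared with each single drug and with untreated cells. Against untreated cells, 24 members were lower and 4 higher in A549, beside 30.4% and 27.4% of all genes, with a median of -0.24. In SUM159, sharing the untreated libraries that chose the list, 30 were lower and 4 higher, beside 33.1% and 32.2%, with a median of -0.39. Scaling by total counts gave 8 higher in each line, and it moved the median of all genes in SUM159 by 0.15. FKBP5 was at 39.2 and 41.6 CPM with both drugs in A549 against 84.7 and 83.0 untreated (log2 change -1.05, SE 0.054, adjusted p = 4.33e-10). FKBP4 and CCT7 followed, with log2 changes of -0.83 and -0.78, and HSPB8 rose most (1.11). In SUM159 HSPA14 was lowest, at 21.2 and 20.5 CPM against 42.2 and 44.2 untreated (log2 change -1.05, SE 0.060, adjusted p = 9.39e-11), before FKBP4 (-0.86), CCT6A (-0.81) and HSPE1 (-0.71).

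When indisulam was added to palbociclib, 13 members were higher and 10 lower in A549, beside 23.7% and 27.8% of all genes. DNAJC7 rose and CCT7 fell most, with log2 changes of 0.53 and -0.52. In SUM159, where the palbociclib libraries are those that chose the list, 9 were higher and 21 lower, beside 23.4% and 24.9%, and 5 were higher without SUM159 PI replicate 2. HSPA1B went from 47.0 and 48.9 to 66.7 and 72.7 CPM (log2 change 0.54, SE 0.052, adjusted p = 2.98e-07) and HSPA1A from 19.5 and 20.0 to 24.1 and 25.0 CPM (log2 change 0.31, SE 0.064, adjusted p = 0.000793), so that all P+I libraries lay above all PD libraries in both copies.

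The combination was also compared with the sum of the log2 changes of the single drugs. In A549, 1 member departed upward, STIP1 (log2 change 0.25, SE 0.056, adjusted p = 0.0247), and none downward, beside 1.49% and 2.05% of all genes. Without A549 PI replicate 1 there were 5 upward and 1 downward, and without A549 UT replicate 1 or 2, A549 PD replicate 2 or A549 IN replicate 1 or 2 there was none upward. At an unadjusted p under 0.05 edgeR gave 8 upward and 3 downward, and DESeq2 gave 2 and 0 after adjustment. In SUM159, HSF1 alone departed upward (log2 change 0.24, SE 0.062, adjusted p = 0.0364) and none departed downward, beside 2.22% and 2.16% of all genes. At an unadjusted p under 0.05 edgeR gave 3 upward and 2 downward, and DESeq2 gave 0 in either direction after adjustment. The call of HSF1 was lost without 7 of the 8 SUM159 libraries in turn, at 0.19 to 0.28, all but PD replicate 2, without which 2 members departed. For most members the combination was not separable from the sum of the single changes at this spread.

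Without drugs the lines differed in 30 members, 20 higher and 10 lower in SUM159, beside 38.3% and 38% of all genes. FKBP5 differed most, at 756 ± 5.04 CPM (SD, n = 2) in SUM159 and 83.8 ± 1.22 CPM (SD, n = 2) in A549 (log2 change 3.04, SE 0.043, adjusted p = 1.75e-26). FKBP5 is a known target of the glucocorticoid receptor, and the SUM159 medium held hydrocortisone. All 8 other glucocorticoid targets on a fixed list were higher in SUM159 too, TSC22D3 by 2.91 and KLF9 by 5.14 on the log2 scale. The summed level of those 8 genes was 270.3 to 275 CPM in untreated A549 libraries and 742 to 762 CPM in untreated SUM159 libraries. Line and medium cannot be told apart. HSPA1A was lower in SUM159, at 19.6 and 18.2 CPM against 89.7 and 86.8 CPM (log2 change -2.36, SE 0.061, adjusted p = 3.37e-21), and the reads of both copies together differed by -1.20. The untreated SUM159 libraries are among those that chose the list, so HSPA8 and HSP90AA1 are given here as levels with no test: HSPA8 stood at 4455 and 4382 CPM in SUM159 and 2902 and 2820.4 CPM in A549, and HSP90AA1 at 4220.2 and 4255 and 3994 and 3868 CPM.

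Chaperones outside the list were counted in the same way. Of 57 such genes (prefoldins, other HSP70 and HSP90 family members, other J-domain proteins, small heat shock proteins and co-chaperones), 51 were tested in A549, where 16 were lower and 13 higher with palbociclib, beside 21.1% and 22% of all genes, with a median log2 change of -0.11. In SUM159 on top of indisulam 25 of 52 were lower and 10 higher, beside 28% and 24.9% of all genes, with a median of -0.11. Prefoldin, which hands actin and tubulin to CCT, had 4 of 6 subunits lower with palbociclib in A549, led by PFDN4 (-0.44, adjusted p = 0.000151), and none higher. Among the J-domain genes DNAJC9, a histone chaperone, fell most (-1.16, adjusted p = 1.48e-10) and DNAJB9, of the endoplasmic reticulum, rose most (0.92, adjusted p = 2.52e-07). With indisulam the endoplasmic reticulum chaperones HYOU1 and DNAJC10 fell in both lines, by log2 changes of -1.24 and -1.33 in A549 and -0.70 and -0.66 in SUM159. Immediate early genes, a sign of handling stress, were tested as 7 genes, of which 1 was higher and none lower with palbociclib in A549, and 2 were higher and 2 lower in SUM159 on top of indisulam. Their part in the chaperone changes was not tested.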

How the data were processed

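Gene expression was measured by strand-specific poly(A) RNA sequencing in 16 libraries, 2 in each of 8 groups named from the labels. Per the study's methods the authors trimmed paired reads with SeqPurge and aligned them to GRCh38 with HISAT2, and the submitters' processing notes list HISAT2 2.2.1 and HTSeq. The deposited files hold unnormalised read counts for each Ensembl gene, 1 library per file. The annotation release and the strand setting of the counting are not given in the sources used here. Rows that name no gene (no feature, ambiguous, not unique), 13.2% to 16.4% of each library, were left out of library sizes and tests. Of 58676 identifiers 58207 were matched to GENCODE release 44, which gave symbols, exon lengths and overlaps.

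Counts were fitted with edgeR 4.0.16 in R 4.3.3 (filterByExpr, TMM, glmQLFit, glmQLFTest) on all 8 libraries of a line, and on all 16 for differences between lines (SUM159 minus A549), with adjustment by Benjamini and Hochberg over all genes tested and a threshold of 0.05. SE were derived from the change and its F statistic. All duplicates differed by more than sampling noise (chi-square per degree of freedom 1.59 to 9.13). On simulated counts with 200 genes changed by 0.5 on the log2 scale, the A549 palbociclib comparison recovered 67% of them among 15381 genes, with 8.22% false calls, and that of SUM159 62% among 15698, with 9.49%.

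Named genes were up to 4 rises and 4 falls per comparison among called members that moved 1 way in both pairs of equal number and had a mean of at least 5 CPM, plus HSPA8 and HSP90AA1, with each role described by all its members. Members, lists and tests were chosen with earlier results of these data known. Alternatives were total counts, DESeq2 1.42.0 size factors and its Wald test, no filter, the 2 groups alone, a replicate block, an absolute log2 change of at least 0.5, summed HSPA1A and HSPA1B and each library left out. Pseudogenes of the members, where expressed, held at most 1.93% of the parent's counts. Figures were drawn with Python 3.11.15.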

Additional observations from a re-analysis of the deposited data

Results flagged for a closer look

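Differences between the lines were tested as interactions in the fit of all 16 libraries, and are given as the log2 change in SUM159 minus that in A549. For palbociclib on top of indisulam they were 0.415 for HSPA1B, 0.369 for HSPA1A, 0.41 for FKBP5 and 0.307 for HSPB1, and -0.303 for HSPA8 and -0.26 for DNAJA2. HSPA1A and HSPA1B are near-identical, and their summed reads differed by 0.32. Without A549 PI replicate 2 the calls of HSPA1A, HSPA1B and HSPB1 were lost (0.18, 0.19 and 0.0381), that of HSPB1 also with DESeq2 size factors, total counts or DESeq2's Wald test and without 9 other single libraries, and that of DNAJA2 without SUM159 PI replicate 1 (-0.217).

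For indisulam against untreated cells the differences were 0.37 for FKBP5, 0.299 for CHORDC1, 0.297 for DNAJB6 and 0.242 for AHSA1. On the other side they were -0.852 for HSPA14, -0.583 for HSPE1, -0.403 for HSPB8 and -0.302 for HSF1. That of HSF1 was not called with total counts (-0.278) or without any of 7 single libraries (-0.334 to -0.252). DNAJB6 and AHSA1 lost their calls without A549 UT replicate 1 (0.215 and 0.17) or A549 IN replicate 2 (0.234 and 0.175). The untreated SUM159 libraries in these differences are among those that chose the list. Of these, HSPA14 and HSPE1 share exons with other genes. HSPE1 was listed at 20.2 to 37.7 CPM over the 16 libraries, far under HSPD1.

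Reads in no annotated feature, which no comparison of the members used, were more frequent with indisulam in both lines and also with palbociclib in SUM159. In A549 they were 5.84% of all reads in IN libraries against 4.30% in untreated ones, and in SUM159 5.89% against 3.94%, and in both lines the 2 IN libraries lay above the 2 untreated ones. With palbociclib alone they were 4.44% in A549 and 5.21% in SUM159, and with both drugs 5.25% and 6.36%. The part of these reads in the chaperone levels was not tested.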

How the results depend on the processing

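The duplicates are technical and few, so small changes hang on single libraries, and 3 counts set the lowest level that could be seen. Over the named genes and their alternatives, 2112 values kept direction and side of the threshold, 96 lost and 24 gained a call, and none reversed. Departures aside, counts of lower members in comparisons within a line stayed within 1.5 times the reported ones under each other scaling, test and filter. The replicate numbers did not pair the samples (12 correlations from -0.114 to 0.114). With the replicate block A549 kept 31 lower with palbociclib. For the rest the cause was not tested.

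Scaling by total counts gave 8 higher with both drugs against untreated in A549 and 8 in SUM159. In SUM159 it gave 10 higher with indisulam and 7 for palbociclib on top of indisulam. It moved the all-gene median by 0.10 for palbociclib and by 0.15 for both drugs in SUM159. It also gave 4 lower in the difference between lines for palbociclib on top of indisulam and 9 lower for indisulam. DESeq2 size factors gave 11 lower in the former and 2 upward departures in A549. DESeq2's Wald test gave 10 lower, 2 upward departures in A549 and 3 higher with indisulam in SUM159. Without a filter there were 4 upward and 1 downward departures in A549 and 4 lower in the former difference.

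Requiring an absolute log2 change of at least 0.5 left few calls by construction. In A549 this gave 1 higher and 5 lower with palbociclib, 1 and 2 with indisulam, 1 and 6 with both drugs, 1 and 2 for palbociclib on top of indisulam, 1 and 1 for indisulam on top of palbociclib and 0 departures. In SUM159 it gave 0 and 1 with indisulam and 1 and 15 with both drugs. There, palbociclib on top of indisulam gave 0 and 2, and indisulam on top of palbociclib gave 1 and 0. Between untreated lines 10 and 3 were left, for palbociclib on top of indisulam 0 and 0, and for indisulam 0 and 2. In A549 the members reached this size less often than all genes, of which 23.2% did so, called or not, with palbociclib, 29.0% with indisulam and 36.9% with both drugs, against 15%, 7.5% and 17.5% of members. For palbociclib on top of indisulam in SUM159 the shares were 25.9% and 5%. Among genes averaging 100 CPM or more, 10.2% of genes and 10.3% of members reached this size with palbociclib in A549, so no deficit is seen there. For palbociclib on top of indisulam the shares at that level were 7.75% and 3.45% in A549 and 13.3% and 6.90% in SUM159. Such shares were not taken for the other comparisons.

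Leaving out 1 library gave 1 to 2 higher with palbociclib in A549, 6 to 12 with indisulam, 1 to 3 for palbociclib on top of indisulam, and 0 to 5 upward and 0 to 1 downward departures. In SUM159 it gave 3 to 7 higher with indisulam, 1 to 3 for palbociclib on top of indisulam and 5 to 8 for indisulam on top of palbociclib. The differences between lines ran from 1 to 5 higher and 1 to 17 lower for palbociclib on top of indisulam, and from 2 to 7 higher and 8 to 14 lower for indisulam. The lower counts within lines ran from 26 to 33 with palbociclib in A549 and from 27 to 31 on top of indisulam in SUM159.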
